A study of Homo sapiens with 6 samples.

Results

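The RNAs described here are long noncoding RNAs (lncRNAs) and the host genes of small nucleolar RNAs (snoRNAs), measured in total RNA of NCI-H929 that was incubated with or without the enzyme IRE1. They were chosen by symbol: every SNHG gene with a number, and 13 RNAs named singly (GAS5, ZFAS1, EPB41L4A-AS1, DANCR, MALAT1, NEAT1, NORAD, OIP5-AS1, CYTOR, PVT1, KCNQ1OT1, MIAT and TUG1). Of 41 symbols in the annotation that match this rule, 40 had a gene row among the 57905 gene rows of the count files, and SNHG4 was not analysed here. Of these 40 RNAs, 37 passed edgeR's filter on low counts and were tested among 14398 genes. SNHG18 had no count in any library, SNHG22 had 2 counts in control replicate 1 and none elsewhere, and SNHG31 had 10 to 14 counts in the controls and 2 to 6 after IRE1. Of the 37 tested RNAs, 28 are snoRNA host genes and 9 are other lncRNAs.

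NCI-H929 is a human multiple myeloma cell line, that is, a line of malignant plasma cells. Each reaction held 5 μg of its purified total RNA. The treated reactions also held 2 μg of a recombinant fragment of human IRE1 that runs from amino acid 467 to 977, the cytosolic kinase and RNase part, and the controls held no enzyme. Incubation lasted 1 h at 37 °C, and all reactions were then heated to 95 °C for 5 min. No cell was treated, so the values describe naked RNA in a tube, without ribosomes, RNA-binding proteins or compartments. Poly(A)-containing RNA was purified after the incubation and sequenced as paired-end reads, with 3 control and 3 IRE1-treated libraries. Nothing in the labels says that replicates came from separate cultures, so the p-values measure only the spread between these samples, which may be technical.

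IRE1 is a sensor of unfolded proteins in the endoplasmic reticulum, and its RNase cuts the XBP1 mRNA at stem-loops that carry the sequence CUGCAG, as well as other RNAs. A snoRNA host gene carries snoRNAs in its introns: the introns are processed into snoRNAs, which guide the chemical modification of ribosomal RNA, while the spliced and polyadenylated host RNA is exported and, for many hosts, degraded by nonsense-mediated decay. Other RNAs of the list stay in the nucleus, such as MALAT1 in nuclear speckles and NEAT1, the scaffold of paraspeckles. NORAD is a cytoplasmic lncRNA with many binding sites for the Pumilio proteins.

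The 6 libraries held 19615715 to 25678499 counts on genes. All 8 plasma cell markers (SDC1, TNFRSF17, IRF4, PRDM1, XBP1, MZB1, CD38 and SLAMF7) were at 1 CPM (a count scaled by library size) or more in every library, and their summed level was 7675 to 7783 CPM in the controls and 7278 to 7313 CPM after IRE1. Of the other lists, 1 of 4 T cell markers (CD3E, at 41.4 to 50.1 CPM) reached 1 CPM in every library, and no myeloid or stromal marker did; CD3D, CD8A and VWF had at most 1 count in any library. BLOC1S1, a well-known IRE1 substrate, fell from 614 ± 34.0 to 239 ± 33.0 normalized counts (SD, n = 3 each), a log2 fold change of -1.37. Scaling by TMM, which takes most genes as unchanged, used factors of 1.02 to 1.03 for the controls. For the treated libraries these factors were 0.947 (replicate 1), 0.980 (replicate 2) and 0.996 (replicate 3).

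Across the tested list, snoRNA host RNAs were mostly higher after IRE1 and several of the other lncRNAs were lower. With p-values of edgeR's quasi-likelihood test adjusted by the Benjamini-Hochberg method over all tested genes, 14 of 37 RNAs rose and 4 fell at an adjusted p-value under 0.05, while 19 did not pass. Among all tested genes, 10.3% rose and 12.4% fell, 22.7% in all. The median log2 fold change of the 37 RNAs was 0.22, beside 0.0045 over all tested genes, 0.10 over the other 1146 tested lncRNA genes and -0.0044 over the other 12224 tested protein-coding genes. The other lncRNA genes gave 36 higher and 17 lower calls, but only 221 of those 1146 genes had a mean of at least 100 normalized counts, against 31 of the 37 RNAs described here. In a per-library view, all 3 IRE1-treated libraries lay above all 3 controls for 21 RNAs and below them for 6 RNAs. The same separation was seen for 19.1% of all tested genes upward and 20.0% downward, 39.1% in all. These values are relative to each library's size after TMM scaling, so a higher value is not a larger number of molecules. It need not be a larger share of the sequenced poly(A) RNA either. Scaled by library size only, SNHG20, SNHG26 and SNHG27 had slightly negative log2 fold changes (-0.025, -0.0079 and -0.024), and 9 RNAs rose and 6 fell.

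The 28 tested host genes and the 9 other lncRNAs differed in the direction of their changes. Of the host genes, 13 rose and 1 fell (SNHG14), 27 had a positive log2 fold change, and the median was 0.23. Of the other lncRNAs, 1 rose (CYTOR) and 3 fell (OIP5-AS1, MALAT1 and NORAD), 3 had a positive log2 fold change, and the median was -0.20. The difference between these kinds was not tested. Once the dependence on transcript length and GC content was taken out of every library, the median of the host genes was 0.14 and that of the other lncRNAs turned to 0.056, with 9 and 2 higher and 0 and 1 lower calls.

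**Figure D1:**
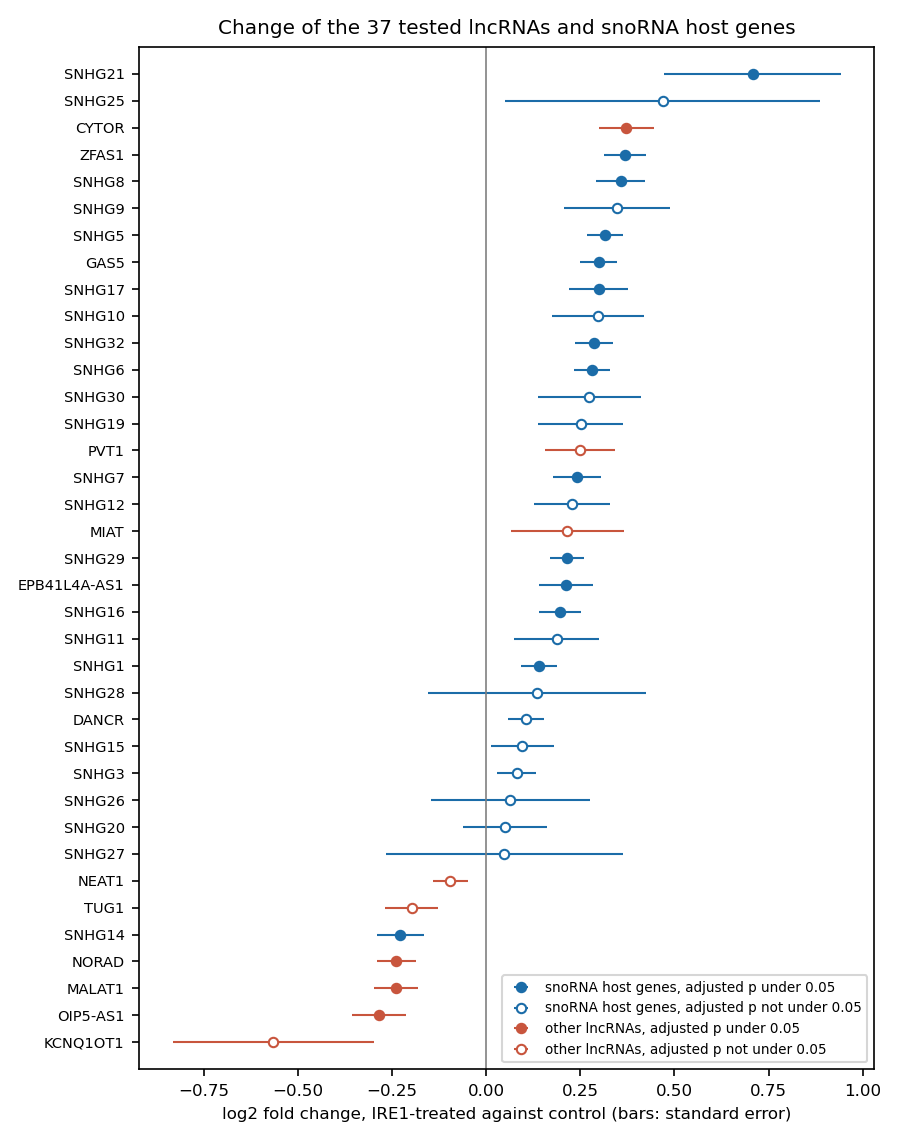
The log2 fold change of each of the 37 tested RNAs (x axis) with its standard error, ordered by size, with host genes in blue, other lncRNAs in red and filled points for an adjusted p-value under 0.05. Of the host genes 27 of 28 lie to the right of 0, while 6 of the 9 other lncRNAs lie to the left.

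The host genes that rose include the abundant hosts of box C/D snoRNAs, which guide 2′-O-methylation of ribosomal RNA. GAS5 (chr1:173827697-173838020, minus strand, GRCh37) holds 11 snoRNA genes in the RefSeq annotation, and its spliced RNA is a known target of nonsense-mediated decay. GAS5 was at 8248, 7988 and 8173 normalized counts in the controls and at 10584, 10007 and 9441 in the IRE1-treated libraries. Every IRE1-treated library was above every control, with a log2 fold change of 0.30 ± 0.049 (SE, n = 3 each, edgeR's adjusted p = 7.4e-04). GAS5 shares exon positions with GAS5-AS1 on the opposite strand, and the strand setting of the counting is not given in the sources used here.

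SNHG29 (chr17:16342081-16383563, plus strand) had the most counts of the list. It was at 23595, 23930 and 24183 normalized counts in the controls and at 28950, 27639 and 26660 after IRE1. SNHG29 alone took 0.109 to 0.111% of the gene counts in the controls and 0.119 to 0.123% after IRE1. Its groups did not overlap, and its log2 fold change was 0.22 ± 0.045 (edgeR's adjusted p = 0.0035). The summed share of the 40 RNAs was 0.353 to 0.358% in the controls and 0.373 to 0.377% after IRE1.

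SNHG5 (chr6:86360209-86388650, minus strand), a host of 2 snoRNAs, was at 2405, 2358 and 2350 normalized counts in the controls and at 2941, 3038 and 2877 after IRE1 (log2 fold change 0.32 ± 0.047, edgeR's adjusted p = 3.7e-04). Its 3 values within each group lay close together and its groups were far apart. SNHG32 (chr6:31802385-31807543, plus strand), also a host of 2 snoRNAs, was at 2779, 2826 and 3021 in the controls and at 3610, 3530 and 3381 after IRE1 (0.29 ± 0.050, adjusted p = 0.0011). SNHG6 was at 2677, 2871 and 2735 in the controls and at 3430, 3329 and 3311 after IRE1 (0.28 ± 0.048, adjusted p = 9.0e-04). For both, the lowest IRE1-treated library exceeded the highest control.

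ZFAS1 (chr20:47894715-47916137, plus strand) is the RNA antisense to the promoter side of ZNFX1 and hosts 3 snoRNAs. ZFAS1 was at 2637, 2565 and 2608 normalized counts in the controls and at 3599, 3388 and 3101 after IRE1, a log2 fold change of 0.37 ± 0.055 (edgeR's adjusted p = 3.7e-04). ZNFX1, which shares exon positions with it on the other strand, moved the opposite way, from 1216 ± 58.7 to 1001 ± 90.4 (SD, n = 3 each; log2 fold change -0.28, adjusted p = 0.0088). EPB41L4A-AS1 (chr5:111496223-111500515, plus strand), the host of SNORA13, was at 534, 565 and 540 in the controls and at 665, 649 and 588 after IRE1 (0.21 ± 0.071, adjusted p = 0.043). Its opposite-strand neighbour EPB41L4A had a log2 fold change of -0.21 that did not pass the test (adjusted p = 0.26). For ZFAS1 and EPB41L4A-AS1 the IRE1-treated libraries all lay above the controls.

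SNHG8 (chr4:119199858-119206471, plus strand) was at 1190, 1188 and 1166 normalized counts in the controls and at 1675, 1491 and 1384 after IRE1 (log2 fold change 0.36 ± 0.065, edgeR's adjusted p = 0.0014). SNHG17 (chr20:37048285-37064052, minus strand), a host of SNORA71 genes, was at 494, 457 and 470 in the controls and at 642, 575 and 537 after IRE1 (0.30 ± 0.079, adjusted p = 0.013). In both, replicate 1 of the IRE1-treated libraries was the highest of the 6 and replicate 3 the lowest of the treated ones. SNHG7 (chr9:139615818-139622636, minus strand) was at 707, 757 and 758 in the controls and at 894, 904 and 828 after IRE1 (0.24 ± 0.064, adjusted p = 0.013).

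SNHG16 (chr17:74553809-74667067, plus strand) was at 1413, 1532 and 1478 normalized counts in the controls and at 1782, 1687 and 1604 after IRE1 (log2 fold change 0.20 ± 0.056, edgeR's adjusted p = 0.019). SNHG1 (chr11:62619450-62623425, minus strand), which holds 9 snoRNA genes, had the smallest of these rises. It was at 2063, 2001 and 2049 in the controls and at 2292, 2233 and 2213 after IRE1 (0.14 ± 0.047, adjusted p = 0.044). The exons of SNHG1 share no position with another gene in the GRCh37 annotation used here, which lacks many snoRNA genes. SNHG1 and EPB41L4A-AS1 were no longer called when any 1 library other than IRE1-treated replicate 3 was left out, with no change of direction. The calls were also lost for SNHG16 without control replicate 1 or 3 or IRE1-treated replicate 2, for SNHG7 without control replicate 1 or IRE1-treated replicate 2, and for SNHG17 without control replicate 2.

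SNHG21, whose mean was under 100 normalized counts and which therefore lies outside the rule for naming, was named after its values were seen because it had the largest log2 fold change of the list, 0.71 ± 0.23 (edgeR's adjusted p = 0.040). It was at 23.7, 23.1 and 32.9 normalized counts in the controls and at 49.2, 41.2 and 39.8 after IRE1. The groups did not overlap, and the call was lost without control replicate 1 or 2 or without IRE1-treated replicate 1 or 2.

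**Figure D2:**
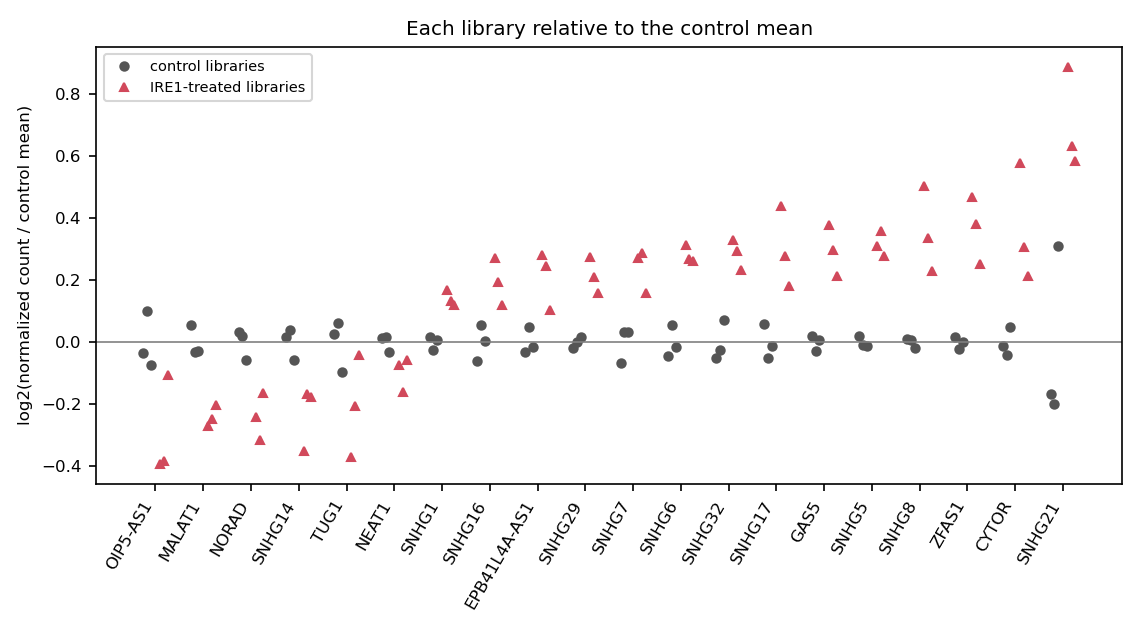
Each library's normalized count relative to the control mean on a log2 scale (y axis) for the 18 RNAs past the threshold and for TUG1 and NEAT1, with controls as circles and IRE1-treated libraries as triangles, drawn in the order of replicates 1, 2 and 3. Among the 14 RNAs that rose, IRE1-treated replicate 1 was the highest in 12.

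The size of the rise differed between the IRE1-treated libraries. The median log2 difference from the control mean over the 37 RNAs was 0.27 in replicate 1, 0.21 in replicate 2 and 0.16 in replicate 3. Over the 14 RNAs that rose it was 0.32, 0.29 and 0.21, and over the 4 that fell it was -0.31, -0.28 and -0.17. The TMM factors given above were in the same order, and their part in these values was not tested.

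The 15 host genes without a rise past the threshold were SNHG14, which fell, and 14 others with log2 fold changes between 0.049 and 0.47. DANCR (chr4:53578492-53589790, plus strand) was at 2337, 2351 and 2421 normalized counts in the controls and at 2490, 2657 and 2500 after IRE1. The groups did not overlap, but the log2 fold change of 0.11 ± 0.049 did not pass the test (edgeR's adjusted p = 0.14). For SNHG25, a host of 1 snoRNA, the estimate was a log2 fold change of 0.47 ± 0.42 that rested on 1 library: it was at 196, 253 and 338 in the controls and at 775, 175 and 157 after IRE1. Without IRE1-treated replicate 1 its log2 fold change was -0.64 (adjusted p = 0.0029). SNHG25 was singled out after its values were seen.

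CYTOR (chr2:87754300-87936259, plus strand), a lncRNA known for a role in cell motility, was the only RNA that rose among those that host no snoRNA. It was at 2176, 2134 and 2272 normalized counts in the controls and at 3273, 2713 and 2542 after IRE1. The groups did not overlap, and the log2 fold change was 0.37 ± 0.073 (edgeR's adjusted p = 0.0024). MIR4435-2HG, a nearly identical copy of CYTOR, gave 0.32 (adjusted p = 0.0082), and reads of the pair cannot be assigned with certainty to either gene. PVT1 (0.25 ± 0.094, adjusted p = 0.066) was at 288, 310 and 323 in the controls and at 406, 353 and 337 after IRE1. MIAT was at 66.8, 71.4 and 67.9 in the controls and at 82.8, 75.0 and 81.6 after IRE1 (0.22 ± 0.15, adjusted p = 0.33). For PVT1 and MIAT the groups did not overlap, but neither passed the test.

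The 4 RNAs that fell were at 82.0 to 85.3% of their control means. NORAD (chr20:34633540-34638940, minus strand) is a single-exon RNA of 5401 bases that overlaps no other gene in the annotation used here. NORAD was at 4089, 4050 and 3844 normalized counts in the controls and at 3380, 3208 and 3570 after IRE1, that is, at 84.8% of the control mean (log2 fold change -0.24 ± 0.051, edgeR's adjusted p = 0.0041). The highest IRE1-treated library stayed below the lowest control. NORAD was no longer past the threshold with the trend of length and GC content removed (-0.071, adjusted p = 0.30).

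MALAT1 (chr11:65265111-65275544, plus strand), 1 exon of 10434 bases in the annotation, was at 1074, 1012 and 1014 normalized counts in the controls and at 857, 870 and 898 after IRE1. This was 84.7% of the control mean (log2 fold change -0.24 ± 0.058, edgeR's adjusted p = 0.0080). Each IRE1-treated library was below each control, but with the trend of length and GC content removed the direction turned (0.056, adjusted p = 0.57), and the call was lost without control replicate 1. The ends of MALAT1 transcripts are formed by RNase P and are not polyadenylated in the usual way, so a poly(A) purification need not recover it in proportion to its amount. MALAT1 shares exon positions with TALAM1 on the opposite strand.

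OIP5-AS1 (chr15:41576156-41614590, plus strand), a cytoplasmic RNA also called Cyrano, was at 1847, 2027 and 1799 normalized counts in the controls and at 1442, 1452 and 1757 after IRE1 (log2 fold change -0.28 ± 0.072, edgeR's adjusted p = 0.011). The groups did not overlap, but IRE1-treated replicate 3 lay just under the lowest control while replicates 1 and 2 were far below. OIP5-AS1 shares exon positions with NUSAP1 on its own strand and with OIP5 on the other. For OIP5 the log2 fold change was -0.034 (adjusted p = 0.87). Without control replicate 2 or IRE1-treated replicate 2, OIP5-AS1 was no longer past the threshold.

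SNHG14 (chr15:25223730-25665483, plus strand) spans the imprinted Prader-Willi region and holds 84 snoRNA genes, most of them in tandem repeats. It was at 1263, 1284 and 1200 normalized counts in the controls and at 980, 1112 and 1104 after IRE1 (log2 fold change -0.23 ± 0.061, edgeR's adjusted p = 0.015). The groups did not overlap, but the call was lost without control replicate 1 or 2 and with the trend of length and GC content removed (-0.044, adjusted p = 0.65). For SNRPN, which shares its strand and exon positions, the log2 fold change was 0.16 (adjusted p = 0.53).

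TUG1, NEAT1 and KCNQ1OT1 were lower without passing the test. TUG1 (chr22:31365231-31375381, plus strand) was at 2686, 2755 and 2470 normalized counts in the controls and at 2040, 2286 and 2562 after IRE1, so the groups overlapped (log2 fold change -0.20 ± 0.070, edgeR's adjusted p = 0.052). NEAT1 (chr11:65190245-65213011, plus strand), of 22743 bases and without an overlapping gene in that annotation, was at 7906, 7927 and 7677 in the controls and at 7453, 7021 and 7542 after IRE1. The NEAT1 groups did not overlap, and the log2 fold change was -0.095 ± 0.046 (adjusted p = 0.16). KCNQ1OT1 was at 36.4, 35.7 and 34.0 in the controls and at 29.995, 14.8 and 27.2 after IRE1 (-0.56 ± 0.27, adjusted p = 0.15), and it lies within KCNQ1 on the opposite strand.

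In the controls, the levels of the 37 RNAs per kilobase of annotated exon ranged from 0.0171 CPM per kilobase for KCNQ1OT1 to 120 for SNHG29. SNHG29 came first (120 ± 1.48, SD, n = 3), followed by GAS5 at 74.1 ± 1.22, SNHG32 at 71.7 ± 3.21 and SNHG6 at 49.1 ± 1.77. The ranges of GAS5 and SNHG32 overlapped, those of SNHG29 and GAS5 and of SNHG32 and SNHG6 did not, and over the whole order 14 of 36 neighbouring pairs had overlapping ranges. Of the RNAs that host no snoRNA, NORAD was highest at 33.2 ± 1.10, then NEAT1 at 15.5 ± 0.273, while MALAT1 was at 4.45 ± 0.152 and OIP5-AS1 at 3.80 ± 0.241. The order depends on the length used, because for many of these RNAs the annotated exons extend well beyond the canonical transcript. Per kilobase of the canonical transcript SNHG29 was at 2423 CPM, GAS5 at 476, SNHG16 at 133 and SNHG32 at 123. By this measure CYTOR, which hosts no snoRNA, was at 96.6, above NORAD at 33.2. The snoRNAs inside the hosts cannot be followed in these libraries: 1457 snoRNA gene rows had 19 to 42 counts per library in all.

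**Figure D3:**
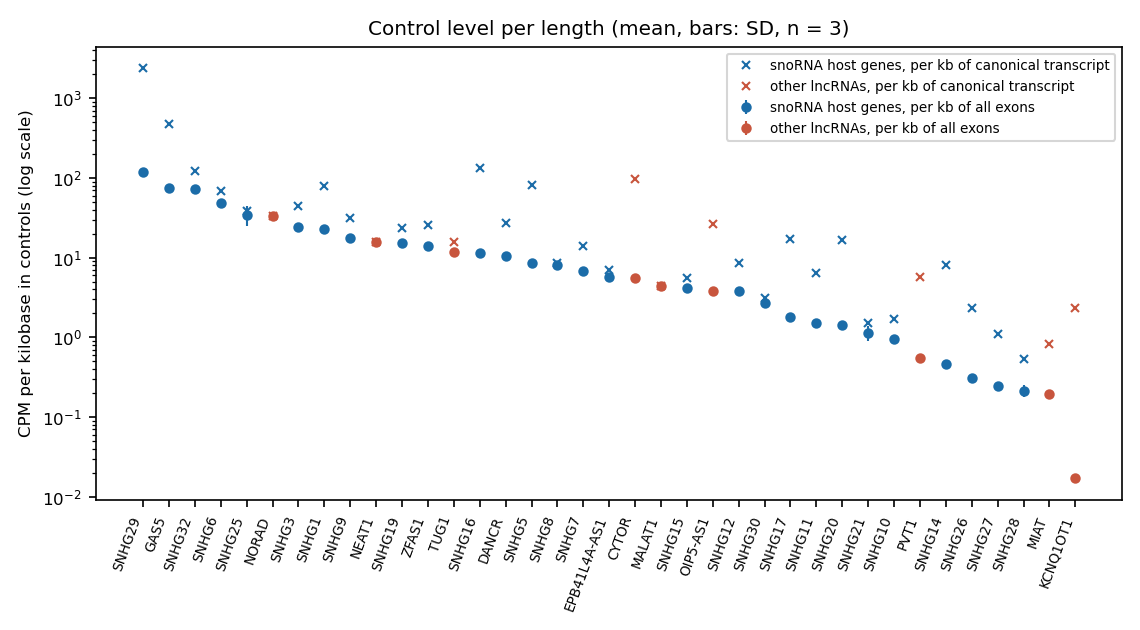
Control level of each tested RNA in CPM per kilobase on a log axis (mean ± SD, n = 3, circles: all annotated exons; crosses: canonical transcript), ordered by the first measure. SNHG29 is at 120 by all exons and at 2423 by the canonical transcript, while single-exon RNAs such as NORAD and NEAT1 have the same level by both.

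Long transcripts were lower and short ones higher over the whole data set. Across 14111 tested genes with an annotated transcript, Spearman's correlation of canonical transcript length with log2 fold change was -0.57, a description across genes that share the same 6 libraries. In 10 bins of length with about equal numbers of genes, the median log2 fold change went from 0.21 in genes of 78 to 960 bases to -0.27 in genes of 7346 to 37852 bases. Over the 37 RNAs the correlation was -0.34, and over the 28 host genes it was -0.16. By the longest transcript these values were -0.51 and -0.32, beside -0.52 over all tested genes. MALAT1, SNHG14 and TUG1 lay near the median of genes of their length. Of the hosts that rose, so did SNHG29 (0.22, bin median 0.21), SNHG16 (0.20, bin median 0.21) and SNHG1 (0.14, bin median 0.17), and GAS5 lay within the middle 50% of its bin. Set against the middle 50% of genes in the same bin of length, 19 of the 37 RNAs were higher (15 hosts and 4 others), 15 lay within it and 3 were lower (OIP5-AS1, KCNQ1OT1 and SNHG26). Among the 19 were ZFAS1 (4526 bases) and SNHG8 (6166 bases), and also NEAT1 (22743 bases as annotated), whose log2 fold change was negative. For ZFAS1 and SNHG8 the canonical transcript is also the longest one annotated. Their place among genes of like length rests on that isoform, and the isoforms in these libraries were not measured.

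**Figure D4:**
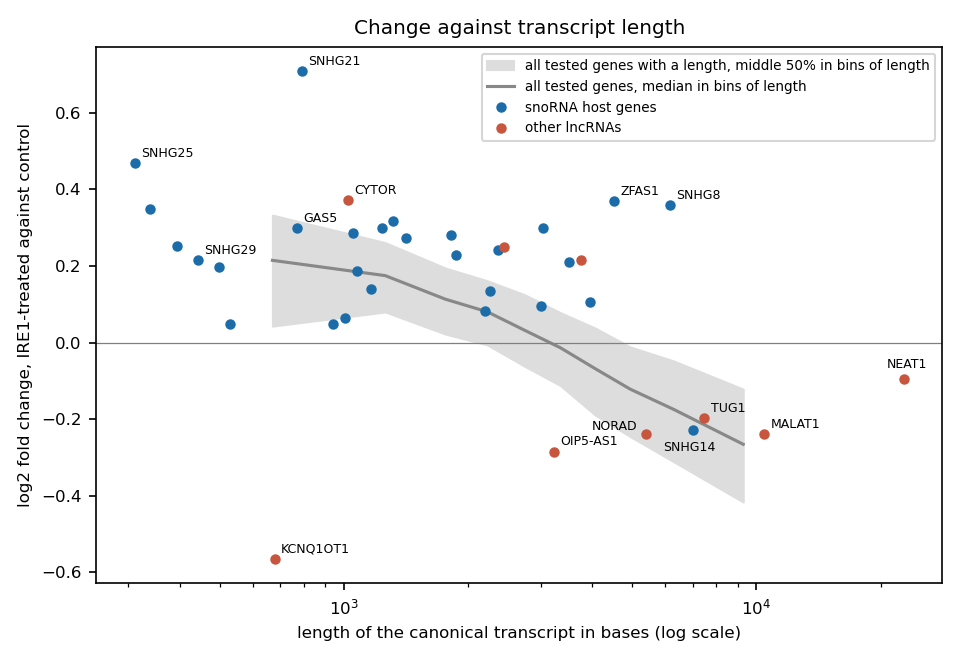
The log2 fold change (y axis) of the 37 RNAs against the length of the canonical transcript in bases (log scale), over the median (line) and middle 50% (band) of all tested genes in 10 bins of length. By bin, 19 RNAs lie above the middle 50%, ZFAS1 and SNHG8 among them, 15 within it and 3 below it (OIP5-AS1, KCNQ1OT1 and SNHG26).

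When the trend with length and GC content was removed from each library, 11 RNAs rose and 1 fell. The RNAs that stayed past the threshold were ZFAS1 (log2 fold change 0.47), SNHG8 (0.57), SNHG6 (0.21), SNHG5 (0.19), CYTOR (0.23), GAS5 (0.14), SNHG32 (0.14), SNHG7 (0.20) and EPB41L4A-AS1 (0.26). DANCR (0.17, edgeR's adjusted p = 0.021) and NEAT1 (0.28, adjusted p = 0.0016) were added, and OIP5-AS1 was the RNA that fell (-0.27, edgeR's adjusted p = 0.017). The rises of SNHG29 (0.038), SNHG16 (0.021), SNHG1 (0.012), SNHG17 (0.16) and SNHG21 (0.55) no longer passed the test, and neither did the falls of NORAD, MALAT1 and SNHG14. KCNQ1OT1 entered that trend with a canonical isoform of 679 bases, although its longest annotated transcript has 91667. NEAT1 entered it with 22743 bases, ZFAS1 with 4526 and SNHG8 with 6166, and which of their isoforms these libraries held was not measured. With library size as the only scaling, 9 RNAs rose and 6 fell, so that 60% of the called RNAs were higher, against 77.8% with TMM and 91.7% with the trend removed. Over all tested genes, 45.5% of the called genes were higher with TMM. That share is not given for the other scalings, which move all genes, so the 60% and 91.7% describe the list alone.

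**Figure D5:**
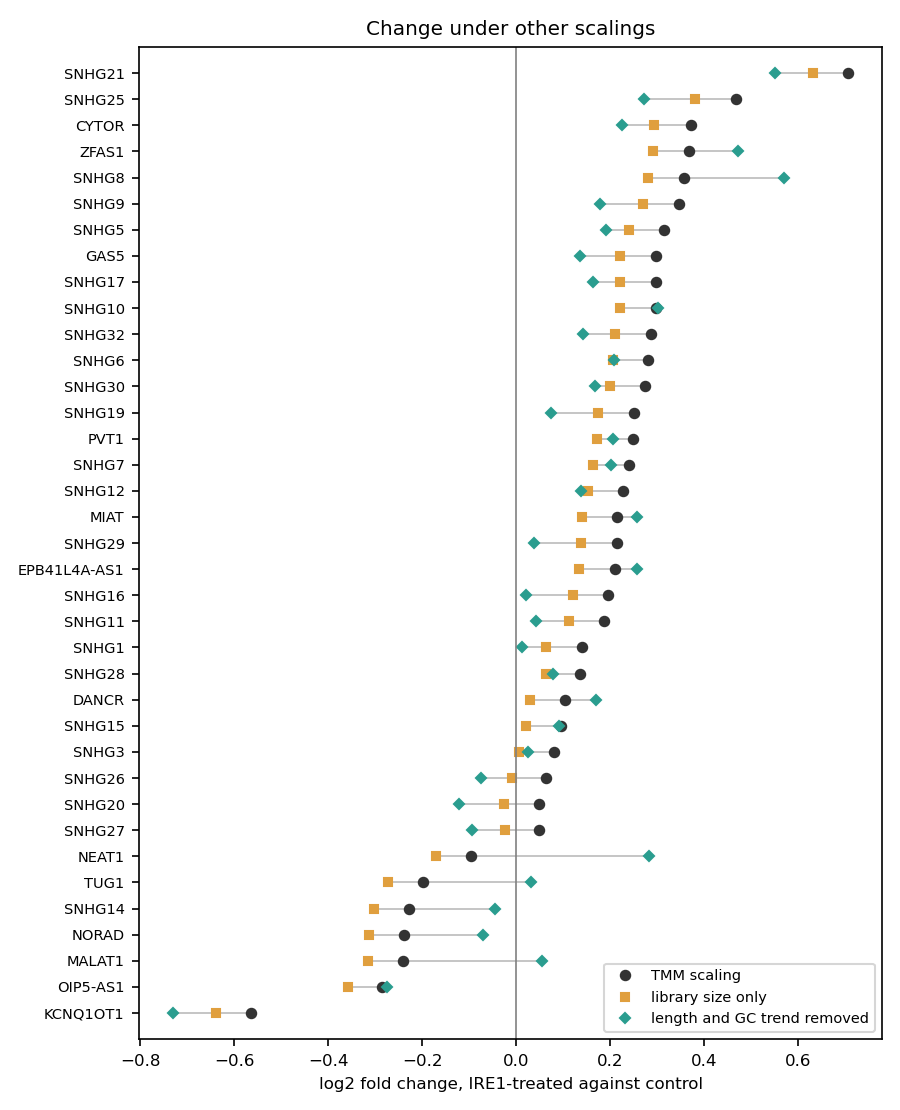
The log2 fold change of the 37 RNAs with TMM scaling (circles), with library size only (squares) and with the trend of length and GC content removed (diamonds). Library size only moves every RNA to the left, and removal of the trend brings NEAT1 from -0.095 to 0.28 and MALAT1 from -0.24 to 0.056.

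Several hosts are known members of the 5′ terminal oligopyrimidine (TOP) class, RNAs that begin with a C followed by a run of pyrimidines, as the mRNAs of ribosomal proteins do. Starts from RefSeq (GRCh38.p14) were read for 30 of the 37 RNAs. Those left out include SNHG6, a host that rose, and PVT1, so the counts of starts do not cover them. Whether RefSeq has an entry for the RNAs left out is not given here. A C followed by at least 4 pyrimidines stood at the start in 5 of 24 tested hosts (20.8%), in 0 of 6 other lncRNAs and in 4.07% of 35116 entries of all genes. Of the 24 hosts, it stood at the start in 3 of the 12 that rose and in 2 of the 12 that did not. The first 30 bases of the 3 that rose are given with the pyrimidine run in capitals, to show what such a start looks like.
SNHG5 (chr6:85678704-85678733, minus strand): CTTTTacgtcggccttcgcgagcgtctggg
SNHG32 (chr6:31834916-31834945, plus strand): CTTTTTgcgaagtgggctcgtgggttggca
ZFAS1 (chr20:49278642-49278671, plus strand): CTTTCgcgtctgcggtgcccggagtgtggt
SNHG12 and SNHG19, the other hosts with such a start, had log2 fold changes of 0.23 and 0.25 and did not pass the test (edgeR's adjusted p = 0.12 and 0.13). The starts of 2 RNAs that fell, with any opening pyrimidines in capitals, are given for comparison.
NORAD (chr20:36050931-36050960, minus strand): agttccggtccggcagagatcgcggagaga
OIP5-AS1 (chr15:41283990-41284019, plus strand): agggttggccaccttgagaagctgcgaaga
The start entered for GAS5 in that table did not open with a pyrimidine, and which starts are used in these cells was not measured.

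The hexamer CTGCAG, written with U for T in the RNA and the core of the XBP1 cleavage sites, was searched on the sense strand of the longest annotated transcript of each gene. It reads the same on both strands. All tested genes held 0.785 matches per kilobase, and 84.7% of them had at least 1. The 37 RNAs held 0.548 per kilobase, with at least 1 match in 30. All 4 RNAs that fell had a match (19 in all, 0.389 per kilobase), as did 11 of the 14 that rose (25 in all, 0.5002 per kilobase), while GAS5, SNHG21 and SNHG32 had none. In the canonical transcripts, all 4 that fell had a match (10 in all), as did 8 of the 14 that rose (18 in all). The canonical count over all tested genes is not given. A match was counted as in a loop when its first G lay unpaired in a predicted hairpin loop with at least 3 stem pairs, within 12 bases on either side. In a loop were 5 of the 19 matches in RNAs that fell, 7 of the 25 in RNAs that rose and 31.5% of those in all tested genes. Of genes within 20% of the length of MALAT1, 98.5% had a match, and 94.3% of those near the length of NORAD.

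The matches of MALAT1 with a predicted loop, the single match of NORAD and the first of 3 in OIP5-AS1 are shown with their flanks (GRCh37), the hexamer in capitals, because these RNAs fell.
MALAT1 (chr11:65265463-65265492, plus strand): accactcaaactCTGCAGtttggtcttggg
MALAT1 (chr11:65270668-65270697, plus strand): tttaacttgcatCTGCAGtattgcatgtta
NORAD (chr20:34638738-34638767, minus strand): gagccctctgccCTGCAGataacggaggcc
OIP5-AS1 (chr15:41590657-41590686, plus strand): gcacagttgagaCTGCAGcagtaaattcca
Both MALAT1 matches lie in its single exon, in predicted loops of 4 and 10 bases. The match of NORAD lies 186 bases from the start of its single exon, and it was not in a predicted loop. None of the 3 matches in the longest transcript of OIP5-AS1 was in a predicted loop, while its canonical transcript holds 1 match, which was. SNHG14, which also fell, had 8 matches in its longest transcript, 3 of them in a predicted loop, and they are not shown. A match is a stretch of letters and not a measured cleavage site. In this design the part of an RNA 5′ of a cut is lost in the purification. Whether cuts at these matches account for the size of the falls was not tested.

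Genes of the proteins that work with snoRNAs and their hosts were counted from lists, to be read against the 10.3% higher and 12.4% lower calls over all tested genes. Of the 4 core proteins of box C/D snoRNPs, 3 rose: NOP58 (log2 fold change 0.45), FBL, the 2′-O-methyltransferase (0.21), and NOP56 (0.16), while SNU13 at 0.14 did not pass the test. Of the 4 box H/ACA core proteins, whose complexes make pseudouridine, NOP10 (0.30) and NHP2 (0.23) rose. Among 8 tested factors of snoRNP assembly, PIH1D1 (0.25) and RUVBL2 (0.13) rose and RUVBL1 (-0.15) fell. Among the factors of nonsense-mediated decay, SMG1 (-0.66), the kinase of UPF1, fell.

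The partners of NORAD and NEAT1 were counted in the same way. PUM2 (-0.27), a Pumilio protein that NORAD binds, fell. Of 8 paraspeckle proteins, PSPC1 (0.24) rose and none fell, a share of 12.5% higher that is close to the 10.3% of all tested genes. Protein-coding genes that hold a snoRNA gene did not share the direction of the noncoding hosts: of 443 tested by the RefSeq annotation, 122 fell and 70 rose, with a median log2 fold change of -0.062. Among those past the threshold whose mean normalized count was 100 or more, the 4 with the largest changes were AAK1 (-1.20), UTRN (-1.01), SMG1 (-0.66) and MIB1 (-0.63), all lower. By the GRCh37 annotation, which lacks many snoRNA genes, 76 of 327 fell and 67 rose, with a median of -0.034. The RefSeq set was taken by position alone, on either strand. Protein-coding and noncoding hosts were not matched for transcript length, and the part of length in their difference was not tested.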

How the data were processed

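Total RNA of NCI-H929 was incubated with or without IRE1 (3 libraries each). The authors used Cutadapt 1.12 for trimming, STAR 2.5.3a for alignment to GRCh37 and HTSeq 0.6.1p1 for counting on Ensembl release 87, and each sample had its own lane. They deposited raw gene counts and a CPM table normalized with edgeR 3.24.3, used here only in an alternative. The strand setting and overlap mode are not given in the sources used here. The 5 HTSeq summary lines (21.4 to 23.2% of counts) were left out.

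The counts were fitted in edgeR 4.0.16 (R 4.3.3): filterByExpr, TMM, quasi-likelihood test, no covariate, adjusted p threshold 0.05. Normalized counts are at the scale of the mean library. Named with all values are RNAs past the threshold whose mean normalized count was 100 or more, and the 13 named singly; of other lists, at most 4 members past the threshold. Alternatives used DESeq2 1.42.0, limma 3.58.1 (log2 of CPM + 1), other scalings and filters, a replicate block, a loess trend with length and GC content (span 0.5), and each library left out. The members and lists were chosen with earlier results of these data known. Annotation was GENCODE 44 on GRCh37; start sequences are RefSeq (GRCh38.p14); loops are from RNAfold 2.7.2. On simulated data of 14398 genes, 87 of 100 changes of 0.5 and 96 of 100 of 1 (log2) were recovered, and 16 unchanged genes were called. Those data held no smaller changes and no trend with length, so they do not give the recovery at the size of most changes reported here. Some markers, overlapping genes and list members are not reported here.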

Additional observations from a re-analysis of the deposited data

How the results depend on the processing

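Alternatives moved the number of calls more than their direction. Shares over all tested genes are given only for the main fit, so the counts under the alternatives describe the list alone. The 4 lower and 14 higher RNAs became 6 and 9 with library size only (median log2 fold change 0.14), 1 and 11 with the trend of length and GC content removed (0.14), and 1 and 9 with that trend removed and the replicate block (0.13). Leaving out 1 library gave 2 to 6 lower RNAs (2 without control replicate 1 or control replicate 2, 6 without IRE1-treated replicate 3), 9 to 18 higher RNAs (9 without control replicate 1 or IRE1-treated replicate 2, 18 without IRE1-treated replicate 3) and a median of 0.18 to 0.23. Of the 7 tested RNAs whose exons overlap no other gene of the GRCh37 annotation used here, 1 fell (NORAD) and 1 rose (SNHG1). With the trend removed, without and with the replicate block, the log2 fold change changed sign to 0.056 and 0.058 in MALAT1, to 0.28 and 0.28 in NEAT1 and to 0.032 and 0.030 in TUG1; the cause was not tested. The median control level per kilobase was 5.72 by all exons, 9.56 by the longest transcript and 15.8 by the canonical transcript, which was added after seeing the data. Over 360 comparisons of 24 named RNAs with an alternative, 290 kept direction and side of the threshold, 54 lost and 10 gained a call, and 6 changed sign. CYTOR, SNHG5, SNHG6, SNHG8 and ZFAS1 were past the threshold in all 15 alternatives. The same-numbered libraries of both groups did not deviate together (r = -0.036, -0.0050 and -0.11 for numbers 1, 2 and 3). This cannot tell whether the reactions were set up in pairs, because matched portions of the same RNA need not deviate together. The replicate block gave 4 lower and 11 higher RNAs (median 0.21). SNHG31, under the low count filter, had a log2 fold change of -1.61 (edgeR's adjusted p = 0.041) when no filter was used. Few counts limit KCNQ1OT1, SNHG21 and SNHG31.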
